A study of Mus musculus with 4 samples.

Results

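The genes described here mark phagocytes that take up debris and lipid in damaged tissue, and they were chosen by name: *Gpnmb*, *Spp1*, *Trem2*, *Tyrobp*, *Apoe*, *Lpl*, *Itgax*, *Cst7*, *Clec7a* and *Cd9*. Of these 10 genes, 9 were measured, among 19491 genes listed in any library, and *Clec7a* was not analysed here. CD45+ cells, which include all leukocytes, were sorted from the brain and the dura mater, the outer meningeal layer, of adult C57BL/6J mice. The methods of the study give an age of 8 to 10 weeks at injury. The mice had photothrombotic injury (PTI), in which light closes vessels after a photosensitizing dye is given, or a sham operation, and cells were taken on day 3. The 4 groups were brain S3 and dura mater S3 after sham operation, and brain D3 and dura mater D3 after PTI. They are wild-type animals that differ in surgery and tissue alone as far as the labels say. The labels call the controls CT, which were read as the S3 groups of the study. Each group has 1 library and the number of mice in it is not given in the sources used here, so no test was made. All intervals below are 95% intervals for counting error alone and leave out the spread between mice.

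TREM2 is a receptor for lipids, lipoproteins and dying cells on microglia and macrophages, and it signals through the adaptor TYROBP (DAP12) to the kinase SYK. In neurodegeneration models microglia lower their homeostatic genes and raise a damage-associated set, and part of that set depends on TREM2. APOE and LPL handle lipid, GPNMB is a membrane glycoprotein of lysosome-rich phagocytes, and SPP1 (osteopontin) is a secreted ligand of integrins and CD44. CST7 (cystatin F) inhibits lysosomal cathepsins, ITGAX (CD11c) is an integrin subunit also used to mark dendritic cells, and CD9 is a tetraspanin.

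Unique molecular identifiers (UMIs) were counted, each standing for 1 captured mRNA molecule. The libraries held 49003977 to 115154317 UMIs, and 13509 of 18969 barcodes were kept, with a median of 7978 to 14173.5 UMIs per kept cell. The brain libraries are labelled CD45-+ in GEO, and *Ptprc*, which encodes CD45, had a UMI in 91.5% to 95.3% of the kept cells of each library. Pairs of libraries shared between 3 and 11 barcodes. Cells were clustered with the members left out of the clustering genes, and clusters were named from marker genes. Levels are given as UMIs of a gene per 1000000 UMIs of a cell class in 1 library (CPM). The kit reads the 3' end of a transcript, so levels are compared between classes and not between genes.

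The microglia-like class held 430 cells in brain S3 and 626 in brain D3, and 4 and 5 in the dura mater libraries. All 11 microglia markers had UMIs in both brain libraries, summing to 20853 CPM in S3 and 13722 in D3. Infiltrating-like macrophages, led by *Gpnmb*, *Arg1*, *Fabp5* and *Spp1*, numbered 11 cells in brain S3 and 1448 in brain D3, and 15 and 40 in dura mater S3 and D3. Since *Gpnmb* and *Spp1* lead this cluster, their levels in it are a description. *Arg1* was the only infiltrating macrophage marker among its 10 leading genes, with 6 of 8 markers detected in at least 10% of its cells. Macrophages were split into Lyve1+ and Lyve1- classes. T-like and B-like cells, in which most of these genes are not typical, are given for comparison. Whether their UMIs come from RNA of other cells, doublets or their own expression was not tested.

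Promoter sequences are shown for the 5 members whose start regions held a motif that was searched. RefSeq start regions of GRCm38, from 250 bases before to 50 after a start, were searched on both strands for TGANTCA, the AP-1 type motif, and for GAGGAAGT, an ETS or PU.1 type motif. Of the 9 members 7 had an entry, with 10 entries in all. TGANTCA was in 4 of these 7 members, or 4 of the 10 entries, and in 7.81% of 32851 start regions. GAGGAAGT was in 1 member, or 1 of the 10 entries, and in 3.20% of start regions. The base at N was C in *Gpnmb*, A in *Trem2*, G in *Itgax* and T in *Cst7*. A match is only a run of letters and was not tested for binding. The windows run from 120 bases before to 20 after the start, on the plus strand, and capitals mark the motif.
Gpnmb, chr6:49036398-49036537: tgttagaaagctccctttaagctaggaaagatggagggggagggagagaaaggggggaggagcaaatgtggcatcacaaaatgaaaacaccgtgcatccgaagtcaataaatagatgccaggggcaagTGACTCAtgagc
Spp1, chr5:104434991-104435130: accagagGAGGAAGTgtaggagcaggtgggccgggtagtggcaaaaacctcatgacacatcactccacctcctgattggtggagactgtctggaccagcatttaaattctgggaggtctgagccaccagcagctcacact
Trem2, chr17:48346281-48346420: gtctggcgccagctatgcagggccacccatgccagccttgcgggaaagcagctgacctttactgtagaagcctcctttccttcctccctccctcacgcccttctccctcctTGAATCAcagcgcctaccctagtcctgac
Itgax, chr7:128129430-128129569: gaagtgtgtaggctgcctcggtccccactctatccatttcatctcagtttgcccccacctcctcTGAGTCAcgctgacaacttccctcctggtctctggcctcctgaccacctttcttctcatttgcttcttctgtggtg
Cst7, chr2:150570295-150570434: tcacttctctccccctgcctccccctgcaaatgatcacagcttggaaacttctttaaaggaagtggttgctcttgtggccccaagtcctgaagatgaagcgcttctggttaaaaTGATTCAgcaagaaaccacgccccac
Counted from the RefSeq start, the AP-1 type motif began 8 bases after it in *Gpnmb*, and 9, 56 and 6 bases before it in *Trem2*, *Itgax* and *Cst7*. The motif of *Spp1* began 113 bases before its start. By gene model (GENCODE vM21, GRCm38), *Gpnmb* lies on the plus strand of chromosome 6 from 49036546 to 49070929 and *Spp1* on that of chromosome 5 from 104435118 to 104441050. The gene model start of *Gpnmb* lies past the end of the window shown, so it differs from the RefSeq start used for the motif. *Trem2* spans 48346401 to 48354147 on chromosome 17 and *Apoe* 19696109 to 19699188 on the minus strand of chromosome 7.

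The receptor *Trem2* was highest in microglia-like cells, at 2150.4 CPM (2111 to 2191) in S3 and 1941 (1915 to 1968) in D3, and was next highest in infiltrating-like macrophages of brain D3, at 1372 (1359.8 to 1385). Lyve1+ macrophages held 496 CPM in brain S3, 654 in brain D3, 314 in dura mater S3 and 304 in dura mater D3. Lyve1- macrophages held 585, 578, 367.5 and 365 in that order. The adaptor *Tyrobp* was broad: microglia-like cells held 2801 CPM in S3 and 3099.9 in D3, and infiltrating-like macrophages of brain D3 held 3073. Macrophage, monocyte-like, cDC-like, granulocyte-like and mast cell-like classes held 1132 CPM or more in every library with at least 20 of their cells, NK/ILC1-like cells 2157 or more, and granulocyte precursor-like and migratory DC-like cells 835 or more, while T-like and B-like cells together held 105 in brain S3 and 235 in brain D3. *Trem2* and its adaptor thus had different ranges over the classes: Ly6C hi monocyte-like cells held 3444 CPM of *Tyrobp* and 82.5 of *Trem2* in brain S3.

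*Gpnmb* was at 25.2 CPM in microglia-like cells of brain S3 and at 6.23 or less in every other class with at least 20 cells of the sham libraries. In brain D3, infiltrating-like macrophages held 1450.3 CPM (1437 to 1463), microglia-like cells 46.2 and Lyve1+ and Lyve1- macrophages 11.8 and 10.7. In the dura mater D3 library the 40 infiltrating-like cells held 24.0 CPM (14.5 to 37.5), and Lyve1+ macrophages held 0.143. The 19 UMIs of these infiltrating-like cells lay in 4 of the 40. At a finer clustering, 25 of the 40 shared a group with brain D3 cells, with *Arg1* at 291 CPM beside 1955 in the brain cells. With every cell thinned to 2000 UMIs, 59.8% (57.2 to 62.3) of infiltrating-like macrophages of brain D3 had a *Gpnmb* UMI, beside 4.79% of microglia-like and 4.88% of T-like and B-like cells. Without thinning the shares were 77.8%, 20.6% and 11.2%, at median depths of 21545, 10615 and 5168 UMIs. The thinned microglia-like share thus did not exceed the lymphocyte share.

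By class sum, *Spp1*, the secreted ligand, was highest in infiltrating-like macrophages and microglia-like cells of brain D3. It was uneven over the microglia-like cells, as described below. Infiltrating-like macrophages of brain D3 held 6569 CPM (6541 to 6597), and microglia-like cells held 107 (98.4 to 116) in S3 and 2851 (2819 to 2883) in D3. The 40 infiltrating-like cells of dura mater D3 held 1879 (1785 to 1977). Among the other classes with at least 20 cells, the highest levels were 455 in T-like cells, 451 in proliferating cells and 376 in Ly6C low monocyte-like cells, all in brain D3.

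**Figure D1:**
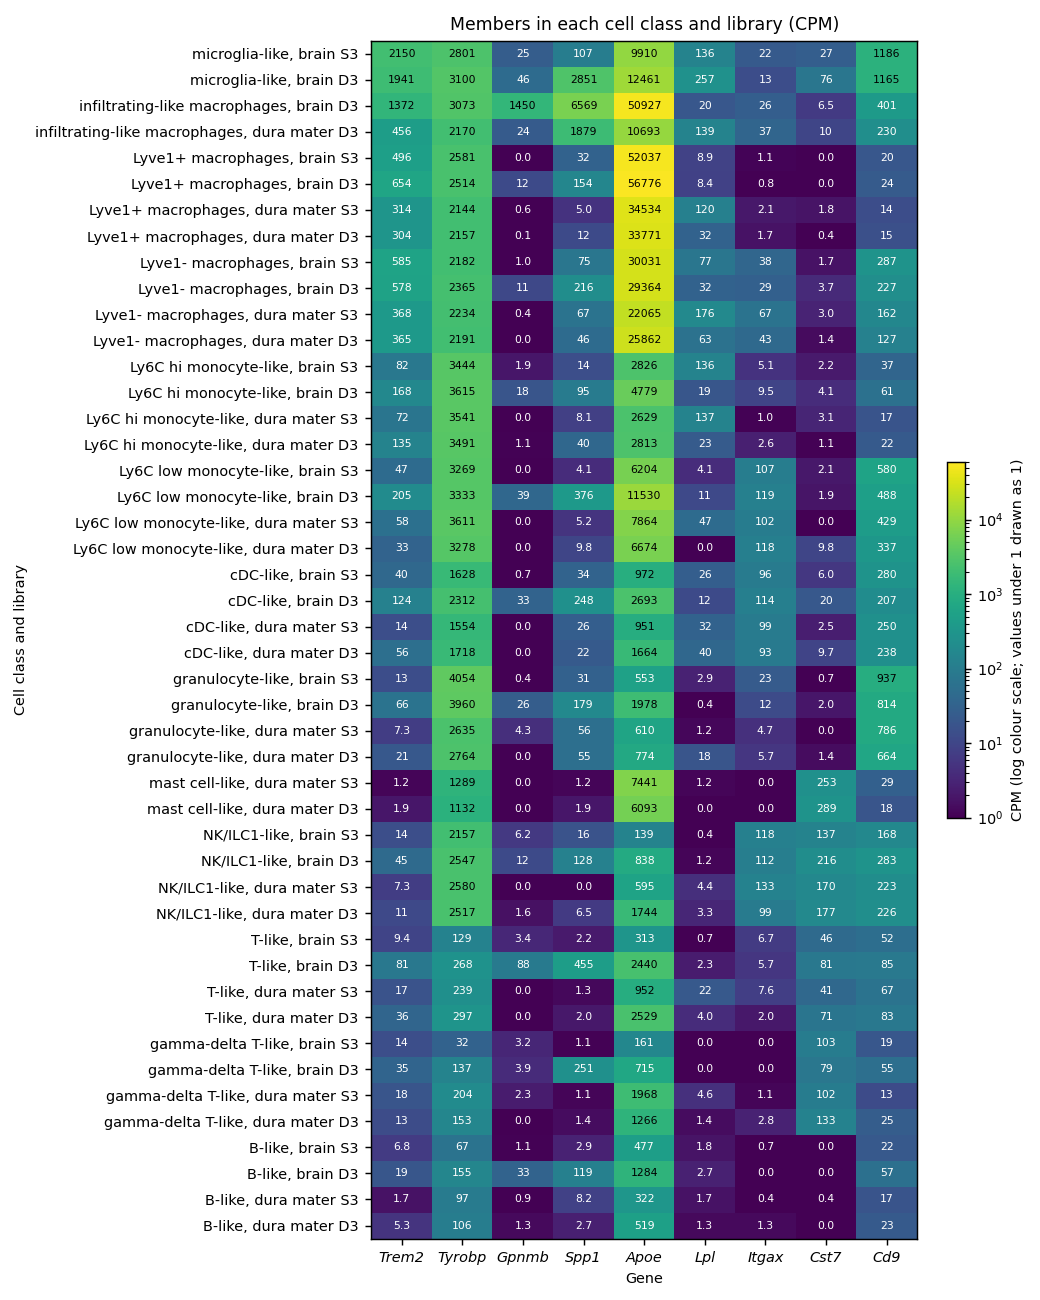
Level of each of the 9 measured genes (columns) in the main cell classes of each library (rows) in CPM, on a log colour scale with the value printed in the cell. *Gpnmb* stands out in 1 row, infiltrating-like macrophages of brain D3, whereas *Tyrobp* is high in all myeloid rows.

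*Apoe*, which encodes a lipid carrier, was highest in Lyve1+ macrophages of the brain, at 52037 CPM in S3 and 56776 in D3, and reached 50927 in infiltrating-like macrophages of brain D3. Microglia-like cells held 9910.0 CPM in S3 and 12461 in D3. Lyve1- macrophages held 22065 to 30031 over the 4 libraries. *Lpl*, the lipase that releases fatty acids from lipoproteins, had another order: microglia-like cells held 136 CPM in S3 and 257 in D3, and infiltrating-like macrophages of brain D3 held 19.7 (18.3 to 21.3). In the dura mater, *Lpl* was highest in Lyve1- macrophages of the sham library, at 176 CPM.

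*Itgax*, *Cst7* and *Cd9* were not held to phagocytes. *Itgax* lay at 92.5 to 114 CPM in cDC-like (conventional dendritic) cells, 99.3 to 133 in NK/ILC1-like cells and 102 to 119 in Ly6C low monocyte-like cells, and at 22.3 in S3 and 13.2 in D3 in microglia-like cells. *Cst7* lay at 253 CPM in mast cell-like cells of dura mater S3 and 289 in D3, and at 137 to 216 in NK/ILC1-like cells, beside 27.0 in S3 and 76.5 in D3 in microglia-like cells. *Cd9* was highest in microglia-like cells, at 1186 CPM in S3 and 1165 in D3, followed by granulocyte-like cells at 664 to 937.

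After injury, microglia-like cells of the brain held far more *Spp1* and more *Cst7*, while *Trem2*, *Tyrobp* and *Cd9* differed by 1.11-fold or less. *Spp1* was 26.6-fold higher in D3 than in S3 (log2 ratio 4.73, 4.61 to 4.86) and *Cst7* was 2.84-fold higher (log2 interval 1.24 to 1.77). *Lpl* was 1.90-fold higher (0.92, 0.80 to 1.04) and *Gpnmb* 1.83-fold higher (0.87, 0.59 to 1.16). The 130 *Gpnmb* UMIs of S3 lay in 11 of 430 cells and the 494 of D3 in 129 of 626. The counting interval does not cover this spread between cells. With cells thinned as above, *Gpnmb* was at 5.81 CPM in S3 and 27.2 in D3, so the size of its difference changed with thinning. *Itgax* was lower, at a log2 ratio of -0.76 (-1.12 to -0.39). Thus 2 of 9 members were at least 2-fold higher and 0 were at least 2-fold lower, where 3.99% and 4.17% of 10048 genes with at least 50 UMIs were. The count of higher members was 4 with median-ratio scaling, with doublets kept and with cells gated by markers. The median log2 ratio was 0.33 over the members and -0.18 over all those genes. Summed dissociation stress genes moved too, from 29759 CPM in S3 to 16233 in D3, and their part in the result was not tested.

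In microglia-like cells of D3, most UMIs of *Spp1*, *Lpl*, *Gpnmb* and *Cst7* lay in 1 subset. At a finer clustering, a subset led by *Lpl*, *Il1a* and *Mmp12* held 34 of the 430 cells in S3 and 216 of the 626 in D3, and 19.8% and 65.0% of the UMIs of the class. Its cells were deep, with a median of 30727.5 UMIs in S3 and 32380.0 in D3, beside 9455 and 7603.5 in the other microglia-like cells. It held 96.8% of the *Spp1* UMIs, 93.5% of the *Lpl* UMIs, 90.5% of the *Gpnmb* UMIs and 83.5% of the *Cst7* UMIs of the class in D3.

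Within the deep subset *Spp1* went from 361 CPM in S3 to 4249 in D3, an 11.8-fold higher level (log2 ratio 3.56, 3.41 to 3.71). In the other microglia-like cells it went from 44.5 to 259 CPM (2.54, 2.31 to 2.78), while B-like cells of brain D3 held 119 CPM, gamma-delta T-like cells 251 and T-like cells 455. *Lpl* differed little within the deep subset, at 351 and 371 CPM, and was lower in the other cells, at 83.0 and 47.5. *Lpl* was thus higher in the whole class while it was not higher beyond its counting interval in either of these groups of cells. *Gpnmb* was lower in the deep subset, at 125 CPM in S3 and 64.4 in D3. It was higher in the other cells, at 0.726 CPM (3 UMIs) in S3 and 12.5 in D3. The *Gpnmb* ratio of the whole class thus described neither of these groups of cells. *Cst7* was 36.3 and 98.3 in the deep subset and 24.7 and 36.0 in the others. *Trem2* was 1516 and 1724 in the deep subset and 2307 and 2345 in the others.

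The deep subset also carried markers of other cells. Its neutrophil markers summed to 3614 CPM in S3 and 4418 in D3, beside 589 and 772 in the other microglia-like cells, and its microglia markers to 9150 and 10269.9, beside 23735 and 20119. Its mean doublet score was 0.0990 in S3 and 0.0694 in D3, beside 0.0259 and 0.0201. The part of depth and of these markers in the result was not tested. Without the subset, *Gpnmb* was at 0.726 CPM (3 UMIs) in S3 and 12.5 (47 UMIs) in D3, beside 71.7 in T-like and B-like cells of brain D3.

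**Figure D2:**
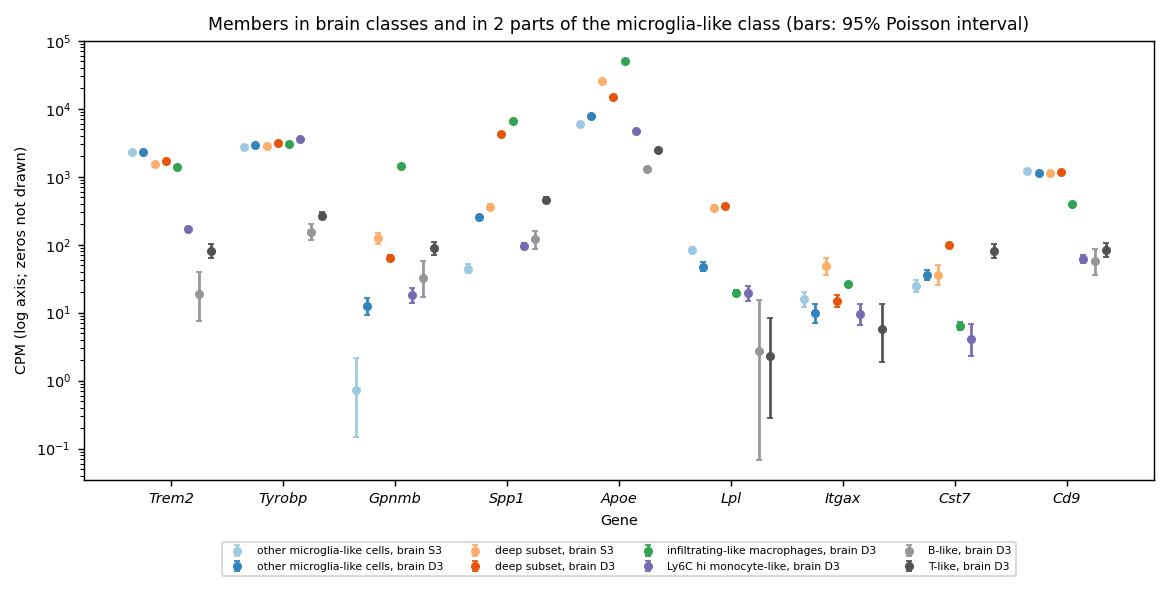
Level of each member in CPM (log axis) in the deep subset and the other microglia-like cells of brain S3 and D3, and in other classes of brain D3, with 95% Poisson intervals. The deep subset of D3 holds 4249 CPM of *Spp1* and the other microglia-like cells 259, between B-like cells at 119 and T-like cells at 455.

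Infiltrating-like macrophages of brain D3 were compared with microglia-like cells of the same library, to set recruited against resident phagocytes. The infiltrating-like cells held more *Gpnmb*, *Spp1*, *Apoe* and *Itgax*, and less *Lpl*, *Cst7* and *Cd9*, while *Trem2* and *Tyrobp* differed by less than 2-fold. *Gpnmb* was 31.4-fold higher (log2 ratio 4.97, 4.84 to 5.10), *Apoe* 4.09-fold (2.03, 2.02 to 2.04), *Spp1* 2.30-fold (log2 interval 1.19 to 1.22) and *Itgax* 2.01-fold (1.01, 0.75 to 1.27). *Lpl* was lower, at a log2 ratio of -3.70 (-3.83 to -3.58), *Cst7* 11.8-fold lower (-3.57, -3.79 to -3.35) and *Cd9* 2.91-fold lower (-1.54, -1.58 to -1.51). So 4 of 9 members were at least 2-fold higher and 3 at least 2-fold lower, where 6.81% and 14.4% of 10991 genes were. *Trem2* was lower, at -0.50 (-0.52 to -0.48), and *Tyrobp* at -0.01 (-0.03 to 0.01). Infiltrating-like cells were deeper, at a median of 21545 UMIs beside 10615.

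Against Ly6C hi monocyte-like cells of brain D3, the circulating precursors of many recruited macrophages, infiltrating-like macrophages held more of 6 of 9 members and 2-fold less of 0, where 14.8% and 6.99% of 10389 genes passed those limits. *Gpnmb* was 80.8-fold higher, *Spp1* 68.8-fold, *Apoe* 10.7-fold, *Cd9* 6.52-fold and *Itgax* 2.78-fold. *Trem2* went from 168 CPM in the monocyte-like cells to 1372 (log2 ratio 3.03, 2.91 to 3.15). *Tyrobp* differed little, at 3615 and 3073 CPM, and *Lpl* at 19.3 and 19.7.

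Against Lyve1+ and Lyve1- macrophages of brain D3 combined, 5 of 9 members were at least 2-fold higher in infiltrating-like macrophages and 0 lower, where 7.69% and 10.5% of 10525 genes were. These were *Gpnmb* at 1450.3 beside 10.997 CPM, *Spp1* at 6569 beside 198, *Trem2* at 1372 beside 599, *Cd9* at 400.5 beside 169 and *Cst7* at 6.46 beside 2.63. The *Cst7* difference rests on 11 UMIs in the resident macrophages, and its log2 ratio was -1.29 when single cells were gated by markers instead of clustered. *Apoe* was close in these classes, at 50927 and 37125 CPM.

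In macrophages of the dura mater, *Lpl* was lower in D3 than in S3, while *Trem2* and *Tyrobp* were close. In Lyve1+ macrophages *Lpl* was 119.6 CPM in S3 and 31.9 in D3, 3.74-fold lower (log2 ratio -1.90, -2.15 to -1.67). In Lyve1- macrophages it was 176 and 63.0, 2.80-fold lower (-1.48, -1.72 to -1.25). *Trem2* lay at 314 and 304 CPM in Lyve1+ and at 367.5 and 365 in Lyve1- macrophages, and *Tyrobp* and *Apoe* also differed by 1.17-fold or less.

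Of 6 members with at least 50 UMIs in Lyve1+ macrophages of the dura mater, 1 was 2-fold higher, *Spp1* at 4.996 and 11.9 CPM (17 and 83 UMIs, with the opposite sign at a clustering resolution of 0.3), and 1 lower, where 0.824% and 0.909% of 9347 genes were. In Lyve1- macrophages 0 of 7 were higher and 1 was lower, where 0.4% and 0.576% of 7993 genes were. *Lpl* was lower also in Ly6C hi monocyte-like cells, where dura mater S3 had 137 CPM and D3 had 23.3, and brain S3 had 136 and D3 had 19.3. In dural Ly6C hi monocyte-like cells 1 of 6 members was higher, *Spp1* at 8.11 and 40.2 CPM, and 1 lower, where 1.57% and 1.17% of 8068 genes were. Dural granulocyte-like cells went the other way for *Lpl*, at 1.22 and 18.2 CPM, but the 89 UMIs of D3 lay in 9 of 372 cells, and the levels were 2.21 and 9.43 CPM with cells thinned to 2000 UMIs. They held 2 of 7 members 2-fold higher, the other being *Trem2* at 7.30 and 21.1 CPM, and 0 lower, where 2.57% and 2.02% of 6895 genes were. Dural cDC-like cells held 1 of 7 higher, *Trem2* at 13.8 and 55.7 CPM, and 0 lower, where 1.32% and 0.895% of 8155 genes were.

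Within the sham dura mater the macrophage classes differed in members before any injury. Lyve1- macrophages held 32.8-fold more *Itgax* than Lyve1+ macrophages (67.4 and 2.06 CPM), 13.4-fold more *Spp1* (67.0 and 4.996) and 12.004-fold more *Cd9* (162 and 13.5). So 3 of 7 members were at least 2-fold higher and 0 lower, where 3.7% and 8.79% of 8226 genes were. *Apoe* was higher in Lyve1+ macrophages, at 34534 CPM beside 22065.

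In the brain, Lyve1+ and Lyve1- macrophages, Ly6C hi and Ly6C low monocyte-like cells and cDC-like cells held more *Spp1* after injury. It went from 32.3 to 154 CPM in Lyve1+ macrophages, 75.4 to 216 in Lyve1- macrophages, 14.0 to 95.5 in Ly6C hi and 4.12 to 376 in Ly6C low monocyte-like cells and 33.7 to 248 in cDC-like cells. T-like and B-like cells went from 2.48 to 355 CPM over the same libraries. NK/ILC1-like cells went from 16.5 to 128, gamma-delta T-like cells from 1.08 to 251 and granulocyte-like cells from 30.5 to 179. Activated T cells are known to make osteopontin, but the source of the *Spp1* UMIs in these classes was not tested. With cells of brain D3 thinned to 2000 UMIs, T-like and B-like cells held 149 CPM, Lyve1+ macrophages 131, Ly6C hi monocyte-like cells 117, cDC-like cells 178, Ly6C low monocyte-like cells 186 and Lyve1- macrophages 191. The order of these classes and the lymphocytes thus depended on depth. T-like and B-like cells also held more of *Gpnmb* (2.48 and 71.7 CPM), *Trem2* (8.41 and 62.9) and *Apoe* (377 and 2097). Thus 6 of 7 members were at least 2-fold higher and 0 lower in T-like and B-like cells of brain D3, where 2.09% and 3.55% of 8452 genes were. *Cst7*, which T-like cells express, is among the 6, at 28.1 and 57.2 CPM. T-like cells alone held 45.8 and 81.4 CPM of it, under 2-fold, and B-like cells had 0 UMIs in both libraries. The make-up of the combined class also differed, with 582 T-like and 497 B-like cells in S3 and 130 and 75 in D3. The lymphocyte classes were unequal, with *Spp1* at 455 CPM (411 to 502) in T-like and 119 (86.8 to 160.3) in B-like cells and *Gpnmb* at 88.3 and 32.6, and the 77 *Gpnmb* UMIs of T-like cells lay in 13 of 130 cells.

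By count, 1 of 4 members was at least 2-fold higher and 0 lower in Lyve1+ macrophages of the brain, where 1.09% and 1.11% of 5304 genes were. In Lyve1- macrophages 1 of 7 was higher and 1, *Lpl*, lower, where 1.07% and 1.16% of 7589 genes were. In Ly6C hi monocyte-like cells 3 of 8 were higher (*Gpnmb*, *Spp1* and *Trem2*) and 1, *Lpl*, lower, where 3.27% and 2.83% of 7495 genes were. In cDC-like cells 5 of 9 were higher and 1, *Lpl*, lower, where 3.32% and 2.03% of 8189 genes were, and the *Lpl* difference changed sign with cells thinned to 2000 UMIs. The cDC-like cells held more *Gpnmb*, *Spp1*, *Trem2*, *Apoe* and *Cst7*, with *Trem2* at 40.3 and 124 CPM. With the level of T-like and B-like cells subtracted, the counts of higher members were 0, 0, 1 and 0. Ly6C low monocyte-like cells of the brain held 3 of 7 members 2-fold higher, among them *Trem2* at 47.3 and 205 CPM and *Gpnmb* at 0 and 62 UMIs, and 0 lower, where 3.14% and 1.03% of 4865 genes were. Granulocyte-like cells of the brain held 4 of 7 higher, *Gpnmb*, *Spp1*, *Trem2* and *Apoe*, and 0 lower, where 7.85% and 2.21% of 5659 genes were. In brain D3, *Gpnmb* was at 39.0 CPM in Ly6C low monocyte-like and 25.8 in granulocyte-like cells, beside 71.7 in T-like and B-like cells. With cells thinned to 2000 UMIs these levels were 36.1, 25 and 29.3. *Spp1* was at 376, 179 and 355 CPM in the same order, and at 186, 259 and 149 thinned.

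**Figure D3:**
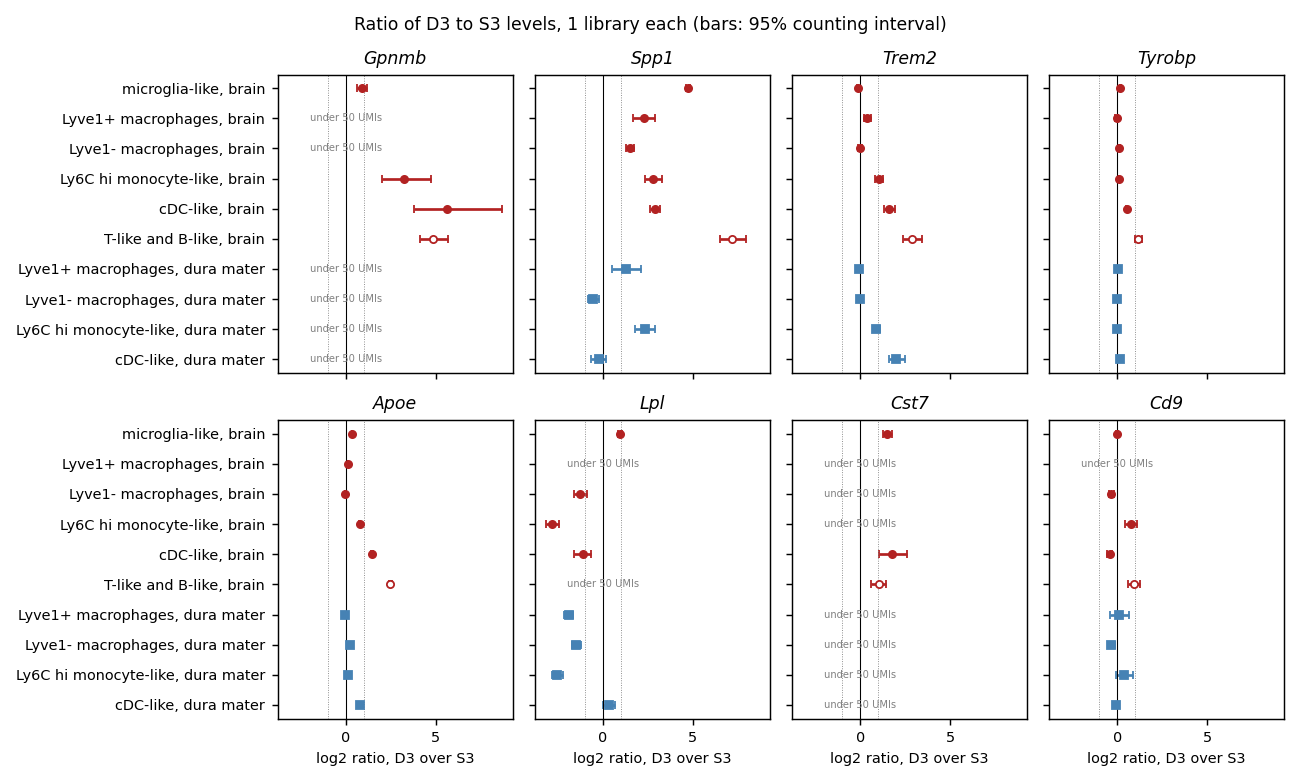
Log2 ratio of D3 to S3 for 8 members, with 95% counting intervals, in brain (red) and dura mater (blue) classes, and open circles for T-like and B-like cells of the brain, given for comparison. *Spp1* is higher in all brain classes drawn, with 7.16 in T-like and B-like cells, and *Lpl* is lower in Ly6C hi monocyte-like cells of both tissues.

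Within a class, some members were spread evenly over cells and others were not. In microglia-like cells of brain D3, the 63 cells with most *Spp1* held 94.9% of its UMIs, and the median cell held 103 per 1000000 of its own UMIs. For *Trem2* the top 63 cells held 26.0%, for *Tyrobp* 28.7% and for *Cd9* 37.3%. In infiltrating-like macrophages of brain D3 the median cell held 741 per 1000000 of *Gpnmb*, 2988 of *Spp1* and 46220 of *Apoe*, and the 145 cells with most of each held 41.1%, 48.5% and 24.3% of the UMIs.

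**Figure D4:**
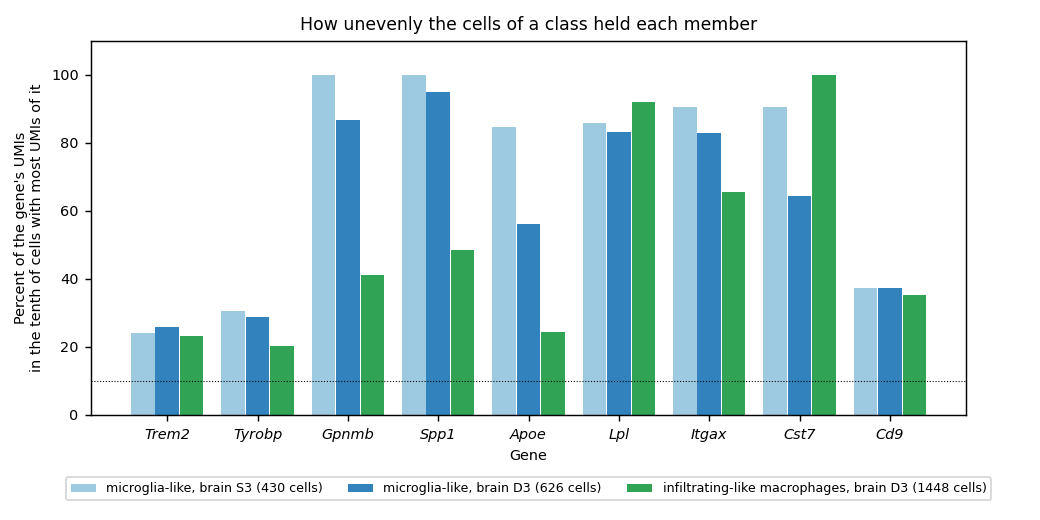
Percent of a gene's UMIs in the tenth of cells with most of it, for microglia-like cells of brain S3 and D3 and infiltrating-like macrophages of brain D3. The bar for *Spp1* in microglia-like cells of D3 is at 94.9% and that in infiltrating-like macrophages at 48.5%, while the *Trem2* bars are at 23.1% to 26.0%; the dotted line marks an even 10%.

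Members were also seen together in cells thinned to 2000 UMIs. Of the 1448 infiltrating-like macrophages, 53.7% had UMIs of both *Gpnmb* and *Spp1*, where the product of the single shares is 46.9%. *Spp1* was seen in 89.7% of the 866 cells with *Gpnmb* and in 61.5% of the 582 without it, and *Trem2* in 93.4% and 78.9%. In microglia-like cells of D3, *Lpl* was seen in 23.6% of the 216 cells with *Spp1* and in 7.07% of the 410 without it.

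Over 53 pairs of class and library, the genes whose log level was most like that of *Gpnmb* were *Htr2b* (Pearson r 0.836), *Spp1* (0.823), *F7* (0.820), *Apoc4* (0.778) and *Pdpn* (0.778). For *Trem2* they were *Itgb5* (0.950), *Lgmn* (0.949), *Ctsb* (0.935), *Tmem86a* (0.928) and *Fcgr1* (0.922). These pairs share libraries, so r is a description. *Htr2b* reached 32.1 CPM and *F7* 73.0 CPM in infiltrating-like macrophages of brain D3. *Trem2* and *Cst7* went apart, with r of -0.31.

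Other genes of these pathways were taken from lists. A list of 16 genes joined other genes of the TREM2-dependent damage-associated step with genes of lipid-laden phagocytes. In microglia-like cells, 5 of these 16 were at least 2-fold higher in D3 and 0 were lower, where 3.99% and 4.17% of all genes tested were. Among the higher ones were the fatty acid binding protein *Fabp5* (31.8 and 265 CPM) and the galectin *Lgals3* (120.1 and 725). Of 13 homeostatic microglia genes, 5 were at least 2-fold lower and 0 higher, among them the purinergic receptors *P2ry12* (1736 and 741 CPM) and *P2ry13* (410.2 and 153). Most of these 13 genes also served to name the microglia-like class, so the count is a description. Within the deep subset *P2ry12* was at 561 CPM in S3 and 338 in D3, and in the subcluster of 396 and 409 other microglia-like cells at 2026 and 1491, so the difference was under 2-fold in each, while the deep subset held a larger part of the class in D3. The values of *Fabp5*, *Lgals3* and *P2ry13* are for the whole class, and the part of the deep subset in them was not tested. Of 15 genes in a joint list of TREM2, TYROBP and CLEC7A signalling 0 passed 2-fold either way. Among partners of *Apoe* and *Lpl*, 3 of 10 were higher, with the LPL inhibitor *Angptl4* at 0.194 CPM (1 UMI) in S3 and 19.0 in D3.

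Between infiltrating-like macrophages and microglia-like cells of brain D3, all 13 homeostatic microglia genes were at least 2-fold lower in the former, where 14.4% of all genes tested were, which is a description since such genes named the microglia-like class. Of 14 other TYROBP partner receptors 8 were higher and 4 lower, where 6.81% and 14.4% of all genes tested were, with *Sirpb1c* at 92.1 beside 9.91 CPM and *Siglech* at 4.03 beside 428. The receptor of osteopontin *Cd44* was higher, at 207 beside 47.6 CPM, and the integrin subunit *Itgb3* lower, at 0.721 beside 13.1.

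Against Ly6C hi monocyte-like cells, 7 of 9 cathepsin and legumain genes were at least 2-fold higher in infiltrating-like macrophages, where 14.8% of all genes tested were higher and 6.99% lower, with *Ctsd* at 10799.9 beside 867 CPM and *Ctsb* at 9837 beside 1081. Of 13 TYROBP partner receptors tested, 0 were higher and 8 lower, among them *Trem3* at 9.47 beside 70.2 CPM. Of 12 partners of *Apoe* and *Lpl*, 6 were higher, with the cholesterol exporter *Abca1* at 257 beside 48.7 CPM, and 2 lower.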

How the data were processed

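CD45+ cells of the brain and dura mater of sham and injured mice were profiled with the 10x Chromium 3' v3 kit, in 4 libraries. Per the labels, the authors used Cell Ranger 3.1.0, the mm10 build and Seurat 3.1.0. The authors deposited, for each gene and cell, a natural log: ln(1 + UMIs per 10000 UMIs). From these, UMIs came back as whole numbers, taking the lowest value in each cell as 1 UMI. Every listed gene had UMIs in 3 or more cells of its library.

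Kept cells had 1000 to 6000 genes and no more than 7% of UMIs from mitochondria. Scrublet (scanpy 1.11.5) scored doublets, but its own threshold marked at most 0.0634% of a library. The cells with the highest scores, 0.8% per 1000 barcodes or 743 in all, were therefore left out. Clusters that carried markers of a second lineage at an 8-fold excess were removed, a choice made after seeing the data (589 cells). Clustering used Seurat 5.3.0 in R 4.3.3 (2500 variable genes less 58 reported or listed genes, 30 components, resolution 0.6). Clusters were named from marker lists, with at least 3 markers detected, and 0.742% to 1.66% of kept cells per library stayed unnamed.

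UMIs were summed by class and library in Python 3.11.15 with scipy 1.17.1. Levels have exact Poisson intervals, shares exact Clopper-Pearson intervals and ratios exact conditional binomial intervals. A gene was called when it differed at least 2-fold and had 50 or more UMIs over the groups compared, in 11 planned comparisons and 7 further ones. Named genes were the members, list genes with the largest ratios (at most 4 per list and direction, at least 2-fold and 100 UMIs) and the 5 genes most like *Gpnmb* and *Trem2*. The members, lists and comparisons were chosen with earlier results of these data known. Intervals were tested on simulated Poisson counts, which leave out the uneven spread of UMIs over cells and the spread between mice. Gene positions are from GENCODE vM21 and promoters from RefSeq, both on GRCm38.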

Additional observations from a re-analysis of the deposited data

Results flagged for a closer look

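The direction of the ratio of D3 to S3 differed between brain and dura mater in 3 cases, each with 1 library per group, and the difference between tissues was not tested. *Spp1* in Lyve1- macrophages had a log2 ratio of 1.52 in the brain and -0.54 in the dura mater, and its level in brain D3 was 216 CPM beside 355 in T-like and B-like cells, or 191 beside 149 with cells thinned to 2000 UMIs. *Apoe* in Lyve1+ macrophages had 0.126 in the brain and -0.0323 in the dura mater, and in Lyve1- macrophages -0.0324 in the brain and 0.229 in the dura mater.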

How the results depend on the processing

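Of 992 log2 ratios of members recomputed under the alternatives, 601 moved by less than their counting interval, 378 moved by more and 13 changed sign. Of 141 counts of members, 117 stayed within 1.5 times and 24 did not. No paired analysis was possible because each group has 1 library, and none could be left out. At resolution 0.3 the Lyve1+ and Lyve1- macrophages merged, and 4 comparisons had no value: infiltrating-like over both, Lyve1- of the dura mater, Lyve1- of the brain, and Lyve1- over Lyve1+. The cause of each difference below was not tested. In microglia-like cells 4 members in place of 2 were 2-fold higher in D3 with doublets kept, with cells gated by markers and with median-ratio scaling. Infiltrating-like over Lyve1+ and Lyve1- macrophages gave 2 in place of 5 with gating. In Lyve1+ macrophages of the dura mater 0 in place of 1 were higher at resolution 0.3, thinned, or with at least 200 UMIs. In the brain, Lyve1+ macrophages gave 2 (no filter on cells), 4 (gating) and 0 (thinned, or T-like and B-like level subtracted) in place of 1, and Lyve1- macrophages 2, 3 and 0 (no filter, gating, subtracted) in place of 1. Ly6C hi monocyte-like cells gave 5, 6 and 1 (no filter, gating, subtracted) in place of 3. The cDC-like cells gave 3 (resolution 0.3, 2500 cells per library, thinned, at least 200 UMIs) and 0 (subtracted) in place of 5. Lyve1- over Lyve1+ macrophages of the sham dura mater gave 1 in place of 3 thinned and with at least 200 UMIs. Changed signs with the lymphocyte level subtracted were *Spp1* in Lyve1+ (-3.56) and Lyve1- (-6.19) macrophages, Ly6C hi monocyte-like (-3.82) and cDC-like cells (-5.93) of the brain, *Gpnmb* in Ly6C hi monocyte-like (-0.23) and cDC-like cells (-0.95), and *Cst7* in cDC-like cells (-0.95) and infiltrating-like over resident macrophages (-2.99). T-like cells express *Cst7*, so subtraction can remove their own expression there. *Cst7* in that comparison was -1.29 with gating, *Spp1* in Lyve1+ macrophages of the dura mater -0.36 at resolution 0.3, and *Lpl* in cDC-like cells of the brain 0.26 with all variable genes, 0.16 with 2500 cells per library and 0.17 thinned. With mixed clusters kept or without the deep microglia-like subset, both chosen after seeing the data, no count of members changed by over 1.5 times. The members that passed did change: in the other microglia-like cells *Cst7* had a log2 ratio of 0.55 (0.16 to 0.93), under 2-fold. *Gpnmb* was above 2-fold there, on 3 UMIs in S3 and 47 in D3.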

Other observations

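Members were also measured in cells outside the phagocyte classes. *Apoe* was at 7441 CPM in mast cell-like cells of dura mater S3 and 6093 in D3, and in ILC2-like cells at 8672 in dura mater S3 and 4617 in D3, beside 2723 in brain S3. Among ILC2-like cells of the dura mater, 80 of 116 and 100 of 129 cells had a UMI and the levels were 4435 and 2698 CPM with cells thinned to 2000 UMIs. T-like and B-like cells of the dura mater held 482 CPM in S3 and 1317 in D3. *Cst7* lay at 78.6 to 133 CPM in gamma-delta T-like cells over the 4 libraries and at 40.6 to 81.4 in T-like cells. In pDC-like (plasmacytoid dendritic) cells, with 22 to 42 cells per library, *Tyrobp* lay at 3652 to 4489.7 CPM and *Itgax* at 63.3 to 81.1.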
